A study of Mus musculus with 25 samples.

Results

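The enzymes and chaperones that fold, trim and cross-link collagen were followed in mouse lung by bulk RNA sequencing. The set holds 10 genes of the 55421 in the deposited count table, taken by gene symbol and not by their measured values: Lox, Loxl1, Loxl2, Loxl3, Loxl4, Plod2, P4ha1, P4ha3, Serpinh1 and Pcolce. All 10 passed a filter on low counts that left 19654 genes for testing.

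The lungs came from female wild-type mice that had received house dust mite extract, an allergen mixture that provokes airway inflammation, or saline by the nose. There were 5 groups of 5 libraries: saline, 10 µg and 100 µg of extract in a 2-week model, and saline and 100 µg in a 12-week model. C57BL/6J was the strain named by the sample labels and C57BL/6cmdb by the design text. The control libraries are called untreated in a treatment label and saline in the protocol. No source used here gives the age of the mice or the number of doses. Age and length of exposure therefore cannot be told apart between the models.

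Collagen chains are modified inside the endoplasmic reticulum, secreted, trimmed outside the cell and then cross-linked. Prolyl 4-hydroxylases modify proline so that the triple helix is stable, lysyl hydroxylases modify lysine and thereby set the kind of cross-link that can form, and the chaperone encoded by Serpinh1 holds the folded helix. Pcolce encodes a protein that speeds the removal of the C-terminal propeptide, and lysyl oxidases then oxidise lysine side chains in collagen and elastin, from which the cross-links of the lung matrix arise.

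Levels are given in CPM, counts scaled to 1000000 per library after TMM (trimmed mean) correction for composition. A gene was called when the adjusted p of edgeR's quasi-likelihood F-test was under 0.05, with the Benjamini-Hochberg adjustment over all 19654 genes and all 25 libraries in 1 fit. Fold changes are log2 values with their standard error (SE), and group values are means ± SD over 5 libraries. Whole lung was measured, so fewer cells of a type and less RNA per cell cannot be told apart. The labels number the libraries as separate samples of a group, and p-values measure the spread between them.

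Total counts lay between 25.4 and 51.9 M (M, 1000000 counts) in 24 libraries. The exception was replicate 4 of the 2-week saline group, with 7.23 M counts, of which 9.80% were mitochondrial. Its median Spearman correlation with the rest of its group was 0.972. Its TMM factor was 0.633, against 0.975 to 1.06 in the other libraries, so its CPM are higher than its counts per total. Results that rest on this library are given with and without it. Lung epithelial and endothelial markers summed to between 17723 and 59909 CPM in every library, and cartilage markers, whose tissue is rich in several of these enzymes, to at most 2.13 CPM. The group labelled saline at 12 weeks did not look like the 2-week saline group. Of 9 macrophage markers, 7 were called higher in it and 1 lower, where 28.5% of all genes were higher and 25.6% lower. Chil3, a chitinase-like protein of alternatively activated macrophages, stood at 4079 ± 1045 CPM against 407 ± 106 CPM. Between the 100 µg groups 7 of the 9 were also higher at 12 weeks and 0 lower, against 22.1% and 16.4% of all genes. Chil3 stood there at 4755 ± 3053 CPM at 12 weeks and 253 ± 101 CPM at 2 weeks. Whether these values follow the label or the model was not tested. The 12-week saline label is taken as given but is in doubt. The comparison between the 100 µg groups of the models, which does not use that group, is given beside changes between the saline groups.

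The promoters of 5 of the 10 genes were in the RefSeq promoter table (build GRCm38.p6): Loxl4, P4ha1, P4ha3, Pcolce and Serpinh1. Those of P4ha1 and Loxl4 are shown because these genes were called in opposite directions with 100 µg at 2 weeks, and that of Serpinh1 because it was the most abundant gene of the set. P4ha1 lies on chromosome 10 and its 250 bases before the annotated start are chr10:59323046-59323295 on the plus strand. The stretch of Serpinh1 is chr7:99353240-99353489 and that of Loxl4 is chr19:42612807-42613056, both read on the minus strand. Capitals mark ACGTG or its reverse complement CACGT, a form of the hypoxia response element core, which is A or G followed by CGTG. The form GCGTG was neither marked nor counted.
P4ha1: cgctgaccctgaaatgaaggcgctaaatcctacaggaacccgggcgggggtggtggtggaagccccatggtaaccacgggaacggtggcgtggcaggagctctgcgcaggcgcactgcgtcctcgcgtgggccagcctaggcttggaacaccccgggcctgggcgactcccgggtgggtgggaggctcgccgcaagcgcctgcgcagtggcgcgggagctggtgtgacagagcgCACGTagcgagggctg
Serpinh1: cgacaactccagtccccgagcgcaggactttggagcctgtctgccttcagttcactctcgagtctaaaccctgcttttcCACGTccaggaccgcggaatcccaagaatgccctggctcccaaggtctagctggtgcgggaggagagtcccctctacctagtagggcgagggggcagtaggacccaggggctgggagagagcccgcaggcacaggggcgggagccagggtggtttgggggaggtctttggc
Loxl4: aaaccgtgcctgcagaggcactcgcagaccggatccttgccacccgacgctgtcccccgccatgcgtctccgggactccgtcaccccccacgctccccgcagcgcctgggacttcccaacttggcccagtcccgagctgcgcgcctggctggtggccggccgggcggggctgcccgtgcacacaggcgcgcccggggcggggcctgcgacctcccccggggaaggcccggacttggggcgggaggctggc
P4ha1 held 1 match, beginning 16 bases before the start, and Serpinh1 held 1, beginning 171 bases before it. Loxl4, P4ha3 and Pcolce held no ACGTG on either strand, and ACGTG was found in 16.6% of 32851 promoters of this length. GGGCGG, a GC-box core, was present on either strand in all 5 genes and in 32.7% of all promoters. The CCAAT box was in none of the 5 and in 33.8% of all promoters, and the TATAAA box in none and in 12.4%. The heat-shock element cores GAANNTTC (6.69% of all promoters) and TTCNNGAA (7.17%) were also in none of the 5. A match is a run of letters and not a measured binding site.

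At 2 weeks, 100 µg of extract raised Loxl1, Loxl4 and Pcolce and lowered P4ha1 relative to saline. The other 6 genes did not pass the test. Without replicate 2 of the 100 µg group, the 3 rises lost the call and P4ha1 alone kept it. Calls over all genes came to 8.13% in either direction, 4.12% higher and 4.01% lower. The median log2 change of the 10 genes was 0.07, against -3.6e-04 over all genes tested. With 10 µg, 0 of the 10 genes were called by edgeR, limma-voom or DESeq2, where 0.0407% of all genes were called by edgeR. At an unadjusted p under 0.05 there was 1 gene, Pcolce, with a log2 change of 0.42 (SE 0.15) and an adjusted p of 0.254. With 10 µg an unadjusted p under 0.05 was found in 2457 of the 19654 genes tested. Between 100 µg and 10 µg, 0 of the 10 were called by any of the 3 tools and edgeR called 0% of all genes, while 1666 genes had an unadjusted p under 0.05, limma-voom called 0 genes and DESeq2 2. P4ha1 was the 1 gene of the set among them, with a log2 change of -0.30 (SE 0.11) and an adjusted p of 0.483.

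At 12 weeks, 100 µg raised P4ha1 relative to the group labelled saline, and the other 9 genes did not pass the test. Over all genes, 8.36% were called, 4.29% higher and 4.08% lower, so a single call among 10 is close to the background. The median log2 change of the set was 0.24, against 0.01 over all genes. The effect of 100 µg differed between the models in P4ha1 alone among the 10, where 8.26% of all genes differed, 4.74% with a more positive effect at 12 weeks and 3.52% with a more negative one. At an unadjusted p under 0.05 there were 7 of the 10 at 12 weeks, and 5838 of the 19654 genes tested. With all groups in the fit limma-voom called 6 of the 10 and DESeq2 4. Their counts over all genes are not given here, so the 6 and the 4 have no background. By contrast, edgeR fitted to the compared groups alone called 0 genes of the whole table, P4ha1 included.

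Between the models more of the set was called, as was more of the whole table. In the group labelled saline, 5 genes were higher at 12 weeks (Loxl1, Loxl2, Loxl3, Loxl4 and P4ha3) and 2 were lower (Plod2 and P4ha1). This comparison called 54.1% of all genes, 28.5% higher and 25.6% lower, so the 7 calls among 10 genes are to be read against a background of more than 5 in 10. Between the 100 µg groups, 5 genes were higher at 12 weeks (Loxl1, Loxl3, Loxl4, P4ha3 and Serpinh1) and 1 was lower (Plod2), against 38.5% of all genes, 22.1% higher and 16.4% lower. Against 2-week saline, the 12-week 100 µg group had 6 genes higher (Loxl1, Loxl3, Loxl4, P4ha3, Serpinh1 and Pcolce) and 2 lower (Plod2 and P4ha1), where 53.7% of all genes were called, 29.4% higher and 24.4% lower. In that last comparison the dose and the model cannot be told apart. The comparisons share groups, so these counts are not independent of each other.

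**Figure D1:**
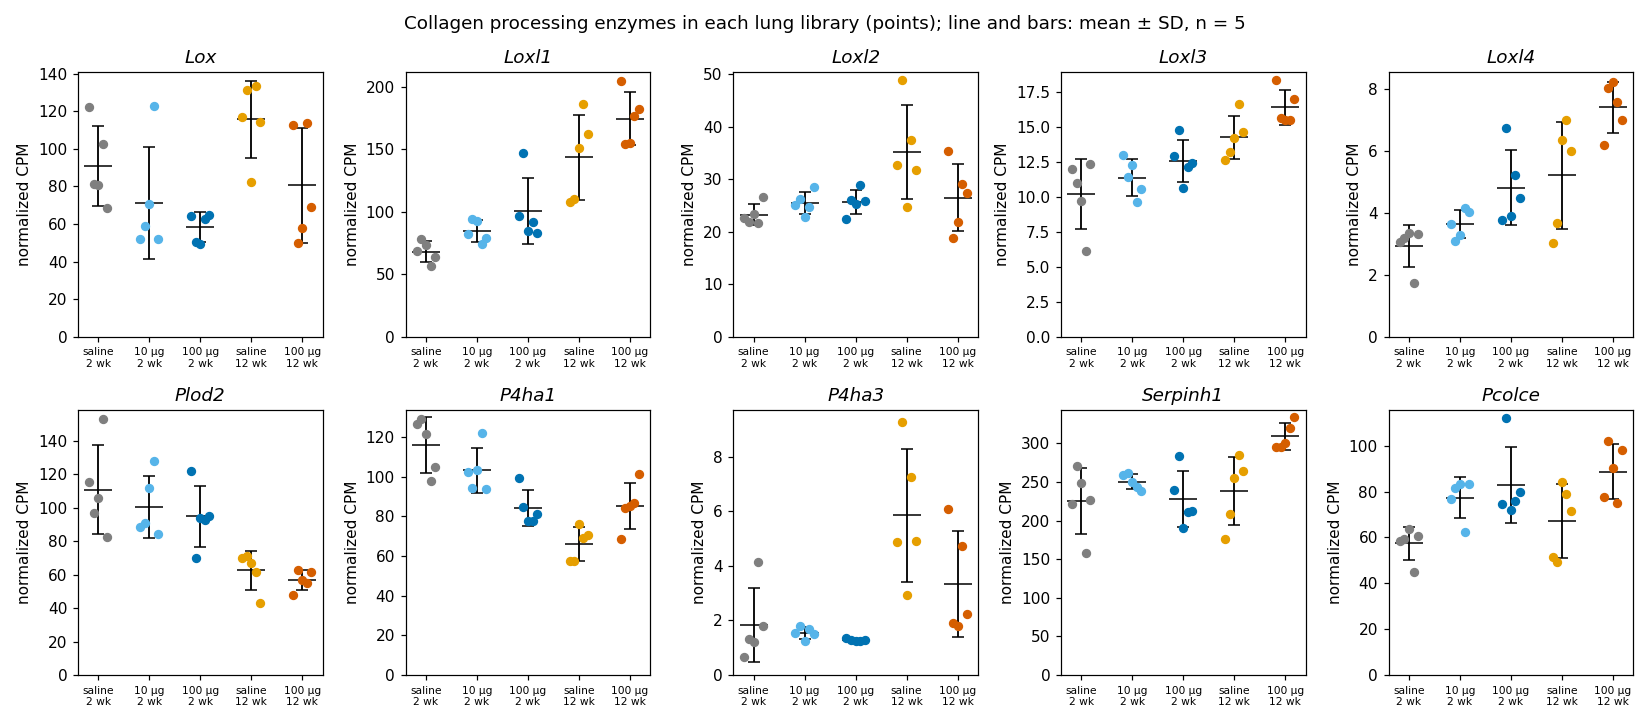
Normalized CPM of the 10 genes in each library (points), by group, with the mean and SD (n = 5) as black bars. Loxl1 rises from 56.6 to 78.1 CPM in 2-week saline to 154 to 204 CPM in the 12-week 100 µg group, while Plod2 and P4ha1 have their highest means in the 2-week saline group.

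P4ha1 encodes the main catalytic alpha subunit of prolyl 4-hydroxylase, the enzyme that makes hydroxyproline in collagen. Its gene lies on chromosome 10 from 59323296 to 59373304 (GRCm38, plus strand). The 2-week saline libraries held 127, 129, 121, 97.5 and 105 CPM, the 10 µg libraries 102, 94.4, 103, 122 and 93.5 CPM, and the 100 µg libraries 99.2, 84.5, 77.5, 77.6 and 81.0 CPM. The 2-week saline and 100 µg libraries overlapped only where the highest treated library, at 99.2 CPM, passed the shallow saline library, at 97.5 CPM. The change was -0.47 (SE 0.11, adjusted p = 0.0111), and it was -0.51 (adjusted p = 0.00661) without the shallow library.

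At 12 weeks P4ha1 stood at 57.2, 57.3, 76.2, 68.8 and 70.4 CPM in the group labelled saline and at 68.5, 84.1, 85.2, 86.5 and 101 CPM with 100 µg. Here 4 of the 5 treated libraries lay above every saline library. The rise was 0.37 (SE 0.11, adjusted p = 0.0383). It was 0.36 (adjusted p = 0.116) when only these groups were fitted, and leaving out any of 6 single libraries, 3 of each group, also ended the call. The difference between the effects, 12 weeks minus 2 weeks, was 0.84 (SE 0.15, adjusted p = 0.00523), the 38th smallest p of all genes tested, and 0.87 without the shallow library.

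The rise of P4ha1 at 12 weeks started from a lower control. The group labelled saline was lower at 12 than at 2 weeks, by -0.82 (SE 0.11, adjusted p = 1.05e-06), with no overlap between the libraries. The 100 µg groups held 84.0 ± 9.003 CPM at 2 weeks and 85.1 ± 11.7 CPM at 12 weeks, and their difference of 0.02 (SE 0.11, adjusted p = 0.901) did not pass the test. In order of level the 12-week saline group was lowest, then came the 100 µg groups of 2 and 12 weeks, then 10 µg and 2-week saline. The neighbours that differed were 12-week saline and 2-week 100 µg (0.35, adjusted p = 0.0119, in a comparison that called 40.6% of all genes) and 12-week 100 µg and 10 µg (0.28, adjusted p = 0.0377, where 46.2% of all genes were called).

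Some heat-shock genes were called in the same comparisons as P4ha1. Of all genes, 4.01% were called lower with 100 µg at 2 weeks and 4.29% higher at 12 weeks. A more positive effect at 12 weeks was called in 4.74%. Of 10 inducible heat-shock genes, 4 fell with 100 µg at 2 weeks, among them the chaperone Hspa8 by 0.67 (SE 0.13, adjusted p = 0.0039) and Hsph1 by 0.89 (SE 0.20, adjusted p = 0.00852) on the log2 scale. At 12 weeks 4 rose, among them Hspa1a by 1.81 (SE 0.38, adjusted p = 0.0188), and 6 had a more positive effect at 12 weeks than at 2. The list summed to between 2235 and 2715 CPM in 2-week saline, 1366 and 1809 CPM with 100 µg at 2 weeks, 1469 and 1755 CPM in 12-week saline and 1466 and 2375 CPM with 100 µg at 12 weeks. In the comparison of the 100 µg groups, where P4ha1 changed by 0.02, 5 were higher and 0 lower, against 22.1% and 16.4% of all genes. Between the saline groups, where P4ha1 changed by -0.82, 0 were higher and 6 lower, against 28.5% and 25.6% of all genes. The genes called at 2 weeks (Hsph1, Hsp90aa1, Hspd1 and Hspa8) were not those called at 12 weeks (Hspa1a, Hspa1b, Dnajb1 and Hspb1).

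The mitochondrial share of counts was 1.99 to 3.59% in 2-week saline without the shallow library and 3.27 to 6.64% with 100 µg at 2 weeks. It was 4.26 to 7.16% in 12-week saline and 2.504 to 4.21% with 100 µg at 12 weeks. The 12-week groups did not overlap in it. The part of the heat-shock genes and of the mitochondrial share in the P4ha1 result was not tested. Among 16 hypoxia-responsive genes, 1 rose (Pfkfb3) and 1 fell (Adm) with 100 µg at 2 weeks, where 8.13% of all genes were called. At 12 weeks 0 were called, against 8.36% of all genes. An unadjusted p under 0.05 was found there in 6, and in 5838 of the 19654 genes tested. Between the saline groups 7 were higher and 6 lower, where 28.5% of all genes were higher and 25.6% lower. Between the 100 µg groups 8 were higher and 5 lower, against 22.1% and 16.4% of all genes. In the difference of the effects Adm was more positive and Egln3 more negative at 12 weeks, where 8.26% of all genes differed.

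P4ha3 encodes a minor alpha subunit of the same enzyme, and its gene lies on chromosome 7 from 100285520 to 100319699 (plus strand). Its level was the lowest of the set, with 17 to 405 counts per library. At 2 weeks it stood at 0.666, 1.34, 1.21, 4.15 and 1.80 CPM in saline, at 1.53, 1.79, 1.23, 1.69 and 1.496 CPM with 10 µg, and at 1.35, 1.27, 1.26, 1.24 and 1.28 CPM with 100 µg. The value of 4.15 CPM was in the shallow library and rested on 19 counts. At 12 weeks it stood at 4.89, 9.27, 2.93, 7.25 and 4.92 CPM in saline and at 6.07, 1.91, 1.81, 4.73 and 2.23 CPM with 100 µg.

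P4ha3 was thus higher at 12 weeks, by 1.92 (SE 0.37, adjusted p = 1.33e-04) between the saline groups and by 1.38 (SE 0.36, adjusted p = 0.00427) between the 100 µg groups, whose libraries did not overlap. Without the shallow library the saline difference was 2.19. Within the 12-week groups the change with 100 µg was -0.81 (SE 0.34, adjusted p = 0.113) and did not pass the test. Replicates 1 and 4 of the 12-week 100 µg group were high in P4ha3, and the same libraries were also the highest of their group in Lox and Loxl2.

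P4ha2, the other alpha subunit gene, lets the family be compared per length of exon. P4ha1 made up 81.7 ± 2.87% of the summed CPM per kb of the alpha subunits in 2-week saline, 70.2 ± 3.24% in 12-week saline and 74.1 ± 2.98% with 100 µg at 12 weeks. The share of P4ha3 was 1.79 ± 1.48%, 8.35 ± 3.83% and 3.99 ± 2.66% in the same groups. The 1.79% includes 4.32% in the shallow library, and the other 4 saline libraries lay between 0.573 and 1.81%. P4ha2 held 16.6 ± 1.61%, 21.5 ± 1.24% and 21.9 ± 1.80%. P4ha2 was itself called in the difference between the effects, by 0.58 (SE 0.14, adjusted p = 0.0169), in the same direction as P4ha1.

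Plod2 encodes the lysyl hydroxylase that acts on the telopeptides of collagen and favours cross-links that are hard to reverse. Its gene lies on chromosome 9 from 92542223 to 92608428 (plus strand). At 2 weeks it stood at 116, 97.1, 106, 153 and 82.4 CPM in saline and at 122, 70.2, 94.0, 92.7 and 94.8 CPM with 100 µg. At 12 weeks it stood at 70.2, 71.0, 67.1, 61.8 and 43.0 CPM in saline and at 47.8, 62.8, 56.5, 54.7 and 61.6 CPM with 100 µg. With 10 µg it ranged from 84.4 to 128 CPM. Every 12-week saline library lay below every 2-week saline library, and likewise for the 100 µg groups.

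The fall of Plod2 between the models was -0.81 (SE 0.16, adjusted p = 1.45e-04) in the saline groups and -0.74 (SE 0.16, adjusted p = 8.6e-04) in the 100 µg groups. Without the shallow library, which held the highest Plod2 level, the former was -0.69 (adjusted p = 6.72e-04). Extract changed it by -0.22 (SE 0.16, adjusted p = 0.427) at 2 weeks and by -0.14 (SE 0.16, adjusted p = 0.569) at 12 weeks, neither of which passed the test. An unclassified opposite-strand transcript, Gm38391, shares 346 exon bases with Plod2 and stood at 3.01 CPM on average.

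The other lysyl hydroxylases moved the opposite way. Plod1, which acts on the helix, was higher by 0.68 and Plod3, which also adds sugars, by 0.75 in 12-week than in 2-week saline (adjusted p = 3.51e-04 and 2.19e-04). They were also higher between the 100 µg groups, by 0.74 and 0.92 (adjusted p = 3.45e-04 and 6.77e-05). Plod2 made up 63.2 ± 7.18% of the summed CPM per kb of the 3 genes in 2-week saline, 57.0 ± 8.58% with 100 µg at 2 weeks, 37.9 ± 9.56% in 12-week saline and 30.7 ± 5.40% with 100 µg at 12 weeks. Plod3 held 24.5 ± 4.24%, 29.2 ± 5.76%, 41.9 ± 7.70% and 48.7 ± 4.51% in the same groups. In the 12-week 100 µg group Plod3 had a larger share than Plod2 in every library, and in the 2-week groups Plod2 had the larger share in every library.

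**Figure D2:**
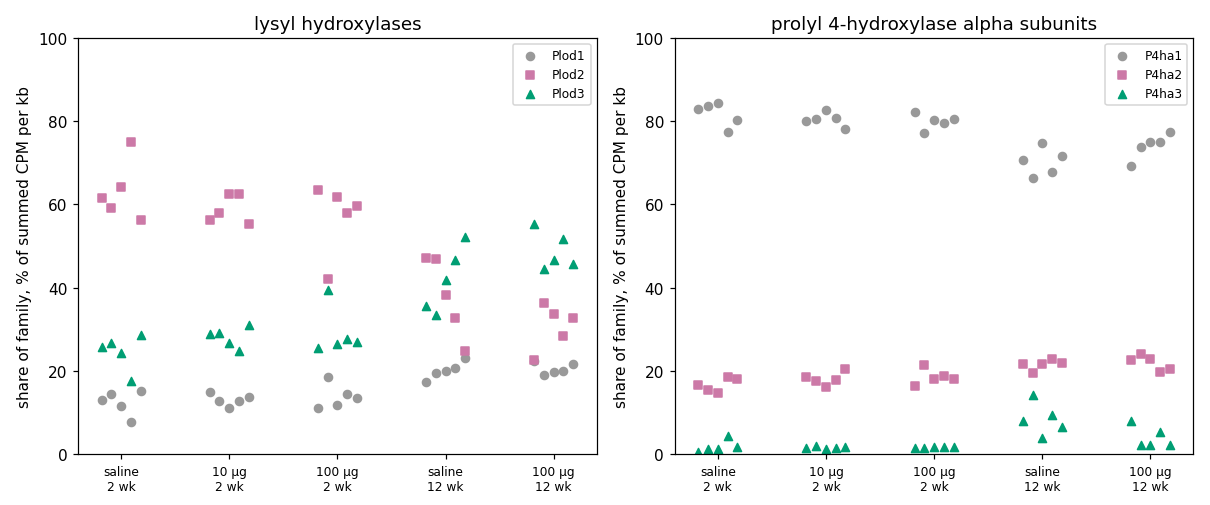
Share of each gene in the summed CPM per kb of exon of its family, in every library (points), for the lysyl hydroxylases (left) and the prolyl 4-hydroxylase alpha subunits (right). Plod2 falls from 63.2% on average in 2-week saline to 30.7% with 100 µg at 12 weeks, while Plod3 rises from 24.5% to 48.7%.

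Serpinh1 encodes the collagen chaperone of the endoplasmic reticulum and was the most abundant gene of the set per length, at 102 CPM per kb on average over all libraries. Its gene lies on chromosome 7 from 99345376 to 99353239 (minus strand). At 12 weeks it stood at 176, 209, 256, 285 and 264 CPM in saline and at 296, 296, 300.0, 319 and 334 CPM with 100 µg. All 5 treated libraries lay above all 5 saline libraries, which was so for 5.19% of all genes in either direction, and Serpinh1 was the 1 gene of the 10. The change was 0.38 (SE 0.13, adjusted p = 0.0576) and did not pass the test.

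At 2 weeks Serpinh1 stood at 222, 271, 249, 159 and 227 CPM in saline and at 239.7, 284, 191, 212 and 213 CPM with 100 µg, which overlapped. The 10 µg libraries lay between 238 and 262 CPM. The change with 100 µg was 0.01 (SE 0.13, adjusted p = 0.973). The difference between the effects was 0.37 (SE 0.18, adjusted p = 0.191) and did not pass the test. Between the saline groups Serpinh1 changed by 0.07 (adjusted p = 0.638), which did not pass the test, and the libraries overlapped. Between the 100 µg groups Serpinh1 was higher at 12 weeks by 0.44 (SE 0.13, adjusted p = 0.00793), with no overlap. General chaperones of the same compartment also differed there, with 8 of 12 called higher and 0 lower, against 22.1% and 16.4% of all genes. Between the saline groups 3 of the 12 were higher and 2 lower, against 28.5% and 25.6%. With 100 µg at 2 weeks 0 were higher and 3 lower (Hspa5, Hsp90b1 and Canx), against 4.12% and 4.01%. At 12 weeks 0 of the 12 were called with 100 µg, against 8.36% of all genes.

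Pcolce encodes the procollagen C-endopeptidase enhancer, and its gene lies on chromosome 5 from 137605103 to 137613784 (minus strand). At 2 weeks it stood at 58.6, 59.5, 63.6, 45.0 and 60.4 CPM in saline, at 76.6, 81.7, 83.2, 62.3 and 83.2 CPM with 10 µg, and at 74.7, 112, 72.1, 76.1 and 79.7 CPM with 100 µg. The 100 µg libraries lay above every saline library, as did 4 of the 5 libraries with 10 µg. The rise with 100 µg was 0.52 (SE 0.15, adjusted p = 0.0298). It was 0.47 (adjusted p = 0.0547) without the shallow saline library and 0.40 (adjusted p = 0.0979) without replicate 2 of the 100 µg group, so either library ended the call.

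At 12 weeks Pcolce stood at 51.3, 49.3, 84.3, 79.0 and 71.7 CPM in saline and at 77.8, 102, 90.5, 74.8 and 98.2 CPM with 100 µg. The groups overlapped, and the change of 0.40 (SE 0.14, adjusted p = 0.0733) did not pass the test. Against 2-week saline the 12-week 100 µg group was higher by 0.62 (SE 0.15, adjusted p = 9.73e-04). Pcolce itself changed by 0.22 (adjusted p = 0.217) between the saline groups and by 0.10 (adjusted p = 0.624) between the 100 µg groups. Pcolce2, a related enhancer, was lower in 12-week than in 2-week saline, by -1.40 (SE 0.20, adjusted p = 3.18e-06). Its change between the 100 µg groups was -0.37 (SE 0.20, adjusted p = 0.137) and did not pass the test. It was higher with 100 µg than with saline at 12 weeks, by 0.95 (SE 0.20, adjusted p = 0.018).

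Loxl1 encodes a lysyl oxidase that is known for its role in elastic fibres. Its gene lies on chromosome 9 from 58287738 to 58313186 (minus strand), and it was the second most abundant gene of the set per length, at 34.7 CPM per kb. At 2 weeks it stood at 68.2, 78.1, 73.7, 56.6 and 64.0 CPM in saline, at 82.1, 94.0, 92.7, 74.2 and 79.3 CPM with 10 µg, and at 96.8, 147, 84.5, 92.0 and 83.1 CPM with 100 µg. All 100 µg libraries lay above all saline libraries. Among the 10 genes this was also so of Loxl4 and Pcolce, and Lox lay wholly below, against 6.5% of all genes separated in either direction.

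The rise of Loxl1 at 2 weeks was 0.56 (SE 0.15, adjusted p = 0.0264), and it was 0.51 (adjusted p = 0.0464) without the shallow library. Without replicate 2 of the 100 µg group, at 147 CPM, it was 0.40 (adjusted p = 0.0878), and the call was lost. It was also lost when only the compared groups were fitted (0.56, adjusted p = 0.0626). At 12 weeks Loxl1 stood at 108, 110.1, 151, 186 and 162 CPM in saline and at 204, 154, 155, 177 and 182 CPM with 100 µg. The groups overlapped, and the change of 0.28 (SE 0.15, adjusted p = 0.207) did not pass the test.

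Every 12-week library of Loxl1 lay above every 2-week saline library. It was higher by 1.07 (SE 0.15, adjusted p = 3.07e-06) between the saline groups, or 2.1-fold, and by 0.79 (SE 0.15, adjusted p = 2.9e-04) between the 100 µg groups. Along the order of levels from 2-week saline through 10 µg, 100 µg and 12-week saline to 12-week 100 µg, the 1 pair of neighbours that differed was 2-week 100 µg and 12-week saline (0.51, adjusted p = 0.00905).

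Lox encodes the founding lysyl oxidase, which cross-links collagen and elastin, and it lies on chromosome 18. At 2 weeks it stood at 122, 81.2, 80.6, 102 and 68.3 CPM in saline, at 52.2, 59.0, 70.9, 123 and 51.9 CPM with 10 µg, and at 64.4, 50.2, 49.4, 62.9 and 64.9 CPM with 100 µg. No 100 µg library reached the lowest saline library. The change of -0.64 (SE 0.24, adjusted p = 0.0917) nevertheless did not pass the test.

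At 12 weeks Lox stood at 117, 131, 82.2, 133 and 114 CPM in saline and at 113, 49.7, 57.7, 114 and 68.98 CPM with 100 µg. The groups overlapped and the change was -0.52 (SE 0.23, adjusted p = 0.136). Between the models Lox changed by 0.35 (SE 0.23, adjusted p = 0.21) in the saline groups and by 0.46 (SE 0.23, adjusted p = 0.118) in the 100 µg groups, and neither passed the test. Its neighbours in the order of the 5 group means did not differ beyond their spread. Pairs farther apart did: 12-week saline was above 2-week 100 µg by 0.99 (SE 0.24, adjusted p = 0.00173) and above 10 µg by 0.70 (SE 0.23, adjusted p = 0.0149). Lox held 40.3 ± 7.004% of the summed CPM per kb of the 5 lysyl oxidases in 2-week saline and 24.3 ± 4.85% with 100 µg at 2 weeks. In 12-week saline it held 31.1 ± 5.81% and with 100 µg at 12 weeks 20.5 ± 4.81%. Loxl1 held 44.2 ± 5.24%, 58.8 ± 6.02%, 55.02 ± 7.57% and 66.6 ± 4.15% in the same groups.

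Loxl2, a lysyl oxidase with scavenger receptor domains that also acts on basement membrane collagen, lies on chromosome 14 from 69609068 to 69695834 (plus strand). It stood at 32.7, 48.9, 24.7, 37.4 and 31.8 CPM in 12-week saline, against 21.6 to 26.7 CPM in 2-week saline, 22.8 to 28.6 CPM with 10 µg and 22.3 to 28.9 CPM with 100 µg at 2 weeks. A single 12-week library lay inside the range of the 2-week group, and the rise was 0.59 (SE 0.15, adjusted p = 0.0018). With 100 µg at 12 weeks it stood at 35.3, 18.9, 21.8, 29.1 and 27.4 CPM, and between the 100 µg groups the change was 0.04 (SE 0.15, adjusted p = 0.836). The rise of Loxl2 between the models therefore passed the test in the groups labelled saline and did not in the 100 µg groups, and the difference between the 100 µg effects, -0.54 (SE 0.21, adjusted p = 0.101), did not pass it.

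Loxl3, which is closely related to Loxl2, lies on chromosome 6 from 83034173 to 83052562 (plus strand). It ranged from 6.12 to 12.3 CPM in 2-week saline, from 9.63 to 13.0 CPM with 10 µg and from 10.6 to 14.8 CPM with 100 µg. At 12 weeks it ranged from 12.6 to 16.6 CPM in 12-week saline and from 15.5 to 18.3 CPM with 100 µg. The groups labelled saline did not overlap, and the rise was 0.44 (SE 0.13, adjusted p = 0.00599), or 0.33 (adjusted p = 0.0117) without the shallow library, which held the lowest value. Between the 100 µg groups it was 0.38 (SE 0.13, adjusted p = 0.0198). Loxl3 shares 535 exon bases with Htra2 on the opposite strand, which stood at 15.7 CPM against 13.0 CPM for Loxl3. Whether the counting used strand is not stated in any source used here, so the Loxl3 counts are uncertain.

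Loxl4, the remaining lysyl oxidase, lies on chromosome 19 from 42593982 to 42612813 (minus strand) and was rare, with 8 to 342 counts per library. At 2 weeks it stood at 3.05, 3.21, 3.36, 1.75 and 3.33 CPM in saline and at 3.77, 6.75, 3.89, 5.22 and 4.49 CPM with 100 µg. The groups did not overlap, and the rise was 0.65 (SE 0.21, adjusted p = 0.0487). The call was lost in 13 of 18 alternatives, 9 of which left out a single library. The lowest saline value came from 8 counts in the shallow library, without which the rise was 0.59 (adjusted p = 0.0814). At 12 weeks it stood at 3.05, 3.69, 6.35, 7.001 and 6.005 CPM in saline and at 6.20, 8.05, 8.23, 7.58 and 7.02 CPM with 100 µg, a change of 0.51 (SE 0.20, adjusted p = 0.0892) that did not pass the test. Between the models it was higher by 0.76 (SE 0.21, adjusted p = 0.003) in the saline groups and by 0.62 (SE 0.20, adjusted p = 0.0152) in the 100 µg groups. The former was 0.67 (adjusted p = 0.00685) without the shallow library.

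**Figure D3:**
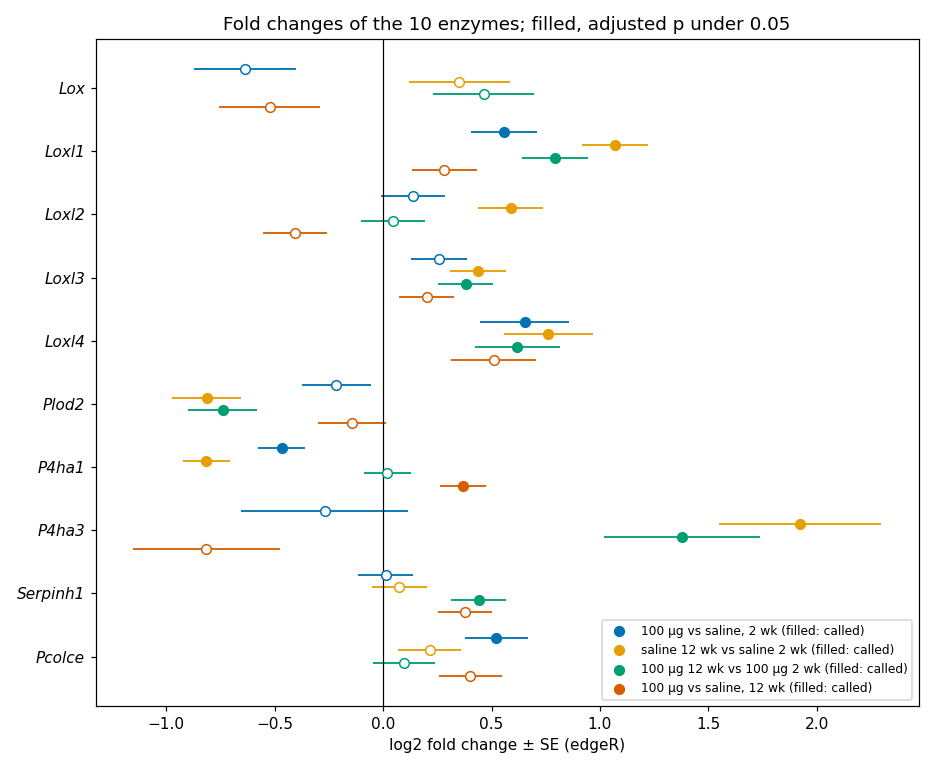
Log2 fold change with SE of the 10 genes in 4 comparisons, with filled symbols for calls at an adjusted p under 0.05. P4ha1 falls by 0.47 with 100 µg at 2 weeks and rises by 0.37 at 12 weeks, and P4ha3 has the largest changes between the models, 1.92 and 1.38.

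Full separation of the libraries was counted as well. Between the groups labelled saline, Loxl1 and Loxl3 lay wholly higher at 12 weeks and Plod2 and P4ha1 wholly lower, where 33.1% of all genes separated. Between the 100 µg groups, Loxl1, Loxl3, P4ha3 and Serpinh1 lay wholly higher and Plod2 wholly lower, against 23.6% of all genes. Between 12-week 100 µg and 2-week saline, Loxl1, Loxl3, Loxl4, Serpinh1 and Pcolce lay wholly higher and Plod2 wholly lower, against 38.7%. None of the 10 separated between 10 µg and saline or between 100 µg and 10 µg, where 3.34% and 1.81% of all genes did. In the order of group means, 5 of the 40 neighbour pairs of the 10 genes were called. Neighbours were picked by these same means, which favours small differences. The count was not made over all genes, so it has no background.

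The collagen substrates were higher at 12 weeks. Of 11 fibrillar collagen genes 9 were tested, and all 9 were higher in 12-week than in 2-week saline, where 28.5% of all genes were. Their median log2 change was 1.34, against 0.39 for the 10 enzymes and 0.04 for all genes tested. Col1a1, the main chain of type I collagen, was higher by 2.49 (SE 0.23, adjusted p = 7.66e-09) and Col3a1 by 1.83 (SE 0.16, adjusted p = 4.42e-09). With 100 µg at both times, 8 of the 9 were higher at 12 than at 2 weeks and 0 lower, against 22.1% and 16.4% of all genes. Their median was 1.21, against 0.41 for the 10 enzymes. Col1a1 was higher there by 1.35 (SE 0.22, adjusted p = 4.84e-05) and Col3a1 by 1.48 (SE 0.16, adjusted p = 3.69e-07). The medians were not tested against each other.

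With 100 µg, 2 of the 9 collagens (Col1a1 and Col1a2) rose at 2 weeks, where 4.12% of all genes did. Replicate 2 of that group held 2122 CPM of fibrillar collagen against 1131 to 1441 CPM in the other 4 libraries. The Loxl1, Loxl4 and Pcolce calls were all lost without this library. At 12 weeks edgeR called 0 of the 9, against 8.36% of all genes. An unadjusted p under 0.05 was found in 1 of them, and in 5838 of the 19654 genes tested. Their median there was -0.03, against 0.24 for the 10 enzymes.

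The summed level of the 10 enzymes ranged from 647 to 753 CPM in 2-week saline and from 633 to 882 CPM in 12-week saline, while fibrillar collagens ranged from 1008 to 1115 CPM and from 2955 to 4529 CPM. The 5 lysyl oxidases alone summed to 195 ± 19.9 CPM and 314 ± 43.6 CPM in these groups, and to 202 ± 26.4 CPM and 305 ± 55.3 CPM with 100 µg at 2 and 12 weeks. Per 100 CPM of fibrillar collagen the lungs held 18.6 ± 2.16 CPM of lysyl oxidases in 2-week saline, 17.6 ± 3.79 with 10 µg and 14.5 ± 2.32 with 100 µg. At 12 weeks they held 8.48 ± 0.604 in saline and 8.48 ± 0.583 with 100 µg. No 12-week library reached a 2-week library in this ratio, since the highest 12-week value was 9.24 and the lowest 2-week value 11.5. Elastic fibre genes, the other substrates of lysyl oxidases, had 7 of 11 called higher and 0 lower between the saline groups, and 6 higher and 0 lower between the 100 µg groups. Over all genes 28.5% were higher and 25.6% lower in the former comparison, and 22.1% and 16.4% in the latter.

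Other genes of collagen processing were called in both directions between the models. Of 25 listed genes 24 were tested. In 12-week against 2-week saline 10 were higher and 5 lower, where 28.5% of all genes were higher and 25.6% lower. The N-proteinase Adamts2 was higher by 1.47 (SE 0.18, adjusted p = 4.55e-07), the collagen galactosyltransferase Colgalt1 by 0.72 (SE 0.09, adjusted p = 7.74e-07) and the collagen-binding Sparc by 0.78 (SE 0.11, adjusted p = 1.75e-06). Pcolce2 was among the lower ones, as was Colgalt2 (-1.05, SE 0.17, adjusted p = 1.1e-05). Between the 100 µg groups 13 were higher and 2 lower (P3h2 and Fkbp14), against 22.1% and 16.4% of all genes. Adamts2 was higher there by 1.08, Colgalt1 by 0.54 and Sparc by 0.50 (adjusted p = 7.08e-05, 1.01e-04 and 8.82e-04). Colgalt2 changed by -0.36 (SE 0.16, adjusted p = 0.0825), so the falls of Pcolce2 and Colgalt2 passed the test in the saline groups and not there. Against 2-week saline, the 12-week 100 µg group had 13 higher and 3 lower (Colgalt2, P3h2 and Fkbp14). Over all genes 29.4% were higher and 24.4% lower there.

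With 100 µg against saline, 2 of the 24 genes rose at 2 weeks, the peptidyl-prolyl isomerase Fkbp10 by 0.76 (SE 0.19, adjusted p = 0.0195) and Sparc by 0.38 (SE 0.11, adjusted p = 0.0314), and 0 fell. Of all genes, 4.12% rose and 4.01% fell at 2 weeks, and 4.29% and 4.08% did at 12 weeks. At 12 weeks 4 of the 24 rose and 0 fell. Besides Pcolce2 these were Colgalt2, by 0.66 (SE 0.16, adjusted p = 0.0262), Ppib, an isomerase of the prolyl 3-hydroxylase complex, by 0.32 (SE 0.09, adjusted p = 0.0349), and P3h4, by 0.58 (SE 0.18, adjusted p = 0.0466). The effects differed in 4 of the 24, where 8.26% of all genes differed. P4ha2, Ppib and Pcolce2 were more positive at 12 weeks and Fmod, a collagen-binding proteoglycan, was more negative.

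**Figure D4:**
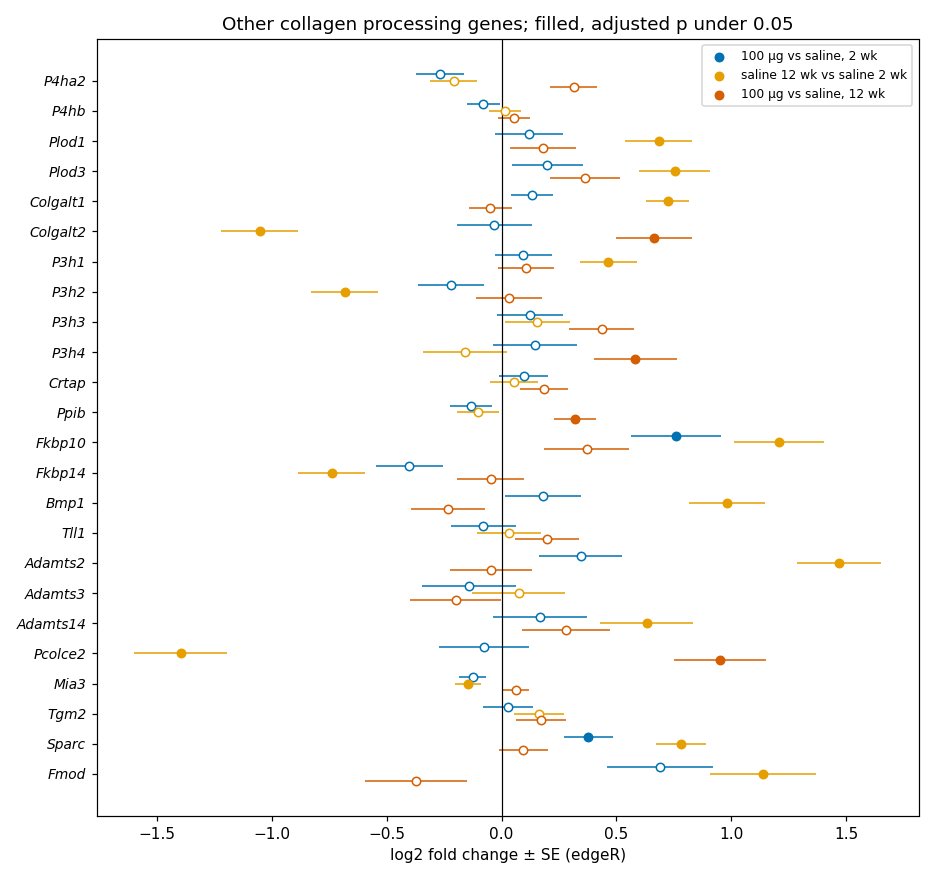
Log2 fold change with SE of the 24 tested genes of collagen processing outside the set of 10, in 3 comparisons, with filled symbols for calls. Adamts2 (1.47) and Fkbp10 (1.21) rise most between the saline groups, and Pcolce2 (-1.40) falls most.

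Markers of the cells that make collagen were counted too, and their part in the results was not tested. Of all genes, 28.5% were called higher and 25.6% lower between the saline groups, and 22.1% and 16.4% between the 100 µg groups. With 100 µg against saline the shares were 4.12% and 4.01% at 2 weeks and 4.29% and 4.08% at 12 weeks. Of 12 lung fibroblast markers, 4 were higher and 4 lower in 12-week than in 2-week saline, and their summed level was 1491 to 1900 CPM against 2076 to 2485 CPM. Of the same markers, 2 were higher and 2 lower between the 100 µg groups. With 100 µg at 2 weeks 0 were higher and 1 was lower (Pdgfra), and at 12 weeks 1 was higher (Col13a1) and 0 were lower. Of 7 smooth muscle and myofibroblast markers, 0 were called at 2 weeks and 1 rose at 12 weeks (Tagln), while 0 rose and 1 fell between the saline groups (Cnn1) and edgeR called 0 between the 100 µg groups, with 1 at an unadjusted p under 0.05. Of 8 lung epithelial and endothelial markers, 0 were higher and 4 lower at 12 weeks in both comparisons between the models. Of 5 tested markers of heart, fat, liver and other tissue, 0 were higher and 2 lower between the saline groups, and 4 were lower between the 100 µg groups.

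Within groups, some of the genes deviated together. Deviations of log2(CPM + 0.5) from the group mean were correlated over the 25 libraries for the 45 pairs of genes, as a description, since the libraries share depth and composition. Loxl1, Loxl3, Loxl4, Serpinh1 and Pcolce had Pearson r from 0.55 to 0.83 among themselves, and from 0.33 to 0.86 without the shallow library. Lox, Loxl2 and P4ha3 had r from 0.43 to 0.64, and from 0.45 to 0.84 without it. Both sets were picked after their values were seen. Lox and Pcolce ran against each other (r = -0.57), as did P4ha1 and P4ha3 (r = -0.58).

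**Figure D5:**
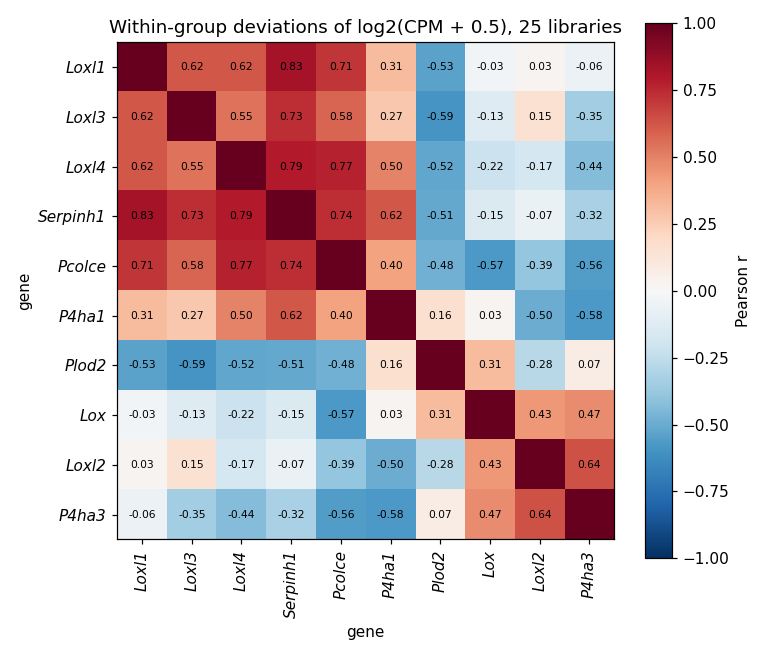
Pearson r between the within-group deviations of log2(CPM + 0.5) of each pair of genes over 25 libraries, on a colour scale from -1 to 1. The block of Loxl1, Loxl3, Loxl4, Serpinh1 and Pcolce has r from 0.55 to 0.83, and Plod2 is negative against each of these.

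The 3 genes nearest to each enzyme by the same measure were sought among tested genes averaging 1 CPM or more, again as a description. The nearest to Loxl1 were Mrc2, a collagen-binding receptor (r = 0.93, and 0.93 over 24 libraries), Ap2a1 and Vat1, and those to Serpinh1 were Tomm40l (r = 0.96, and 0.94 over 24 libraries), Tssc4 and Map2k2. Pcolce was nearest to Osbpl5 (r = 0.93), Tmem119 and Tmem250-ps, Loxl4 to Bok (r = 0.93), Mepce and Megf6, and Loxl3 to Smox (r = 0.91, but 0.77 over 24 libraries), Btbd6 and Sox12. Plod2 was nearest to Stag2 (r = 0.92), Pcnp and Zfp260, and P4ha1 to Pxdc1 (r = 0.89), Mafk and Ccdc117. Lox was nearest to Ranbp9 (r = 0.83), Rc3h1 and Mertk, Loxl2 to Adamts12 (r = 0.82), Tmem131 and Dclk1, and P4ha3 to Pik3r5 (r = 0.89), Fndc3b and Igf1.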

How the data were processed

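RNA was counted in 25 mouse lungs. Per the labels' protocols, the libraries were prepared by a stranded total RNA method (TruSeq). STAR 2.5.3a and GRCm38 are named in the submitters' processing notes. No source used here names the counting tool, how it treated strand, or the release of the gene models. The deposited values are whole-number counts per gene, not normalized by the authors, under Ensembl identifiers, of which 99.5% had a symbol, and 0 columns fell outside the labels. Depth ran from 7.23 to 51.9 M counts per library and limits the precision of rare genes.

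Genes were filtered with filterByExpr, scaled by TMM and tested with the quasi-likelihood F-test of edgeR 4.0.16 in R 4.3.3, with all 25 libraries in 1 fit and the Benjamini-Hochberg adjustment over all 19654 genes. The procedure was tested on simulated data. Groups came from the treatment and time labels, and 8 comparisons and 3 further pairs for the order of levels were tested. In all 300 pairs of libraries counts differed by more than sampling noise (lowest chi-square per degree of freedom 13.1). Levels between genes are CPM per kb of the exon union in the GRCm38 annotation. The 10 genes, the other gene lists and the tests were chosen with earlier results of these data known. By the rule for named genes all 10 are described over the 8 comparisons, called ones by name, with the 3 genes nearest to each and up to 4 genes with the smallest p of other lists. Alternatives were DESeq2 size factors, upper-quartile scaling, no filter, a filter of 1 CPM in 5 libraries, limma-voom (3.58.1), the Wald test of DESeq2 1.42.0, a replicate block, a fit of the compared groups only and leaving out each library.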

Additional observations from a re-analysis of the deposited data

Results flagged for a closer look

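In a group of 5 libraries, a library was marked when its gap to the nearest other was more than 0.71 of the group's range. Of 50 groups of values (10 genes in 5 groups) 5 were marked, and chance marks about 5%. Lox in the 10 µg group was high in replicate 4, at 123 CPM against 70.9 CPM in the nearest library. In the 2-week 100 µg group replicate 2 was high in Loxl1, at 147 CPM against 96.8 CPM, and in Pcolce, at 112 CPM against 79.7 CPM. In the 2-week saline group replicate 4, the shallow library, was low in Loxl4, at 1.75 CPM against 3.05 CPM, and in Pcolce, at 45.0 CPM against 58.6 CPM.

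The effect of 100 µg on P4ha1 differed between the models by 0.84 (SE 0.15, adjusted p = 0.00523, edgeR) on the log2 scale, 12 weeks minus 2 weeks. It was marked because the test of the difference itself passed.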

How the results depend on the processing

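Of 80 results (10 genes in 8 comparisons) 27 were called, and 20 of these kept the call under every alternative. None reversed among called values, and 6 results that were not called passed under 1 or more alternatives. With 100 µg against saline at 12 weeks these were Pcolce (in 6 of 18), Loxl2 (5), Serpinh1 (5), P4ha3 (3) and Loxl4 (2). The last was the difference of the effects for Loxl2, in 2 of 28. All but Loxl4 passed without replicate 3 of 12-week saline, and likewise without replicate 1 of the 12-week 100 µg group. At 2 weeks with 100 µg, 4 genes were called, 2 with limma-voom, 1 when only the compared groups were fitted, and 1 to 4 when a library was left out. At 12 weeks 1 gene was called, 2 with upper-quartile scaling, 6 with limma-voom, 4 with the DESeq2 Wald test, 0 with a replicate block, 0 when only the compared groups were fitted, and 0 to 5 when a library was left out. The cause was not tested. Leaving out a library gave 1 to 2 calls for the difference of the effects (1), 7 for the saline groups (7), 5 to 6 for the 100 µg groups (6) and 7 to 8 for 12-week 100 µg against 2-week saline (8). Calls stayed at 0 for 10 µg against saline and for 100 µg against 10 µg.

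P4ha1 at 2 weeks passed in all 18 alternatives, with adjusted p from 0.00108 to 0.0406, and its difference between the models in all 28, from 4.88e-05 to 0.015. P4ha1 at 12 weeks lost the call in 8 of 18. At 2 weeks Loxl1 lost it in 2 of 18, Pcolce in 5 and Loxl4 in 13. Between the 100 µg groups, Loxl3 lost it in 4 alternatives and Loxl4 without replicate 1 of the 2-week group. P4ha3 in 12-week 100 µg against 2-week saline lost it in 4.

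The replicate numbers did not pair the libraries: over 50 pairs with the same number in different groups, the deviations correlated with r from -0.57 to 0.42, with 7 over 0.1. With the number as a replicate block, 0 genes were called at 12 weeks (P4ha1 0.37, adjusted p = 0.0585) and 3 at 2 weeks. Genes with few counts, Loxl4 (as few as 8) and P4ha3 (17), are limited by depth.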
